A study of Homo sapiens with 6 samples.

Results

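The genes described here are 38 that encode the autophagy machinery, the proteins that build an autophagosome and load it with cargo, out of 60675 genes in the count table. They are listed by gene name, from the kinase that starts the process to the receptors that bind cargo. The rule uses no measured value, but the list was drawn up with earlier results of these data known. All 38 symbols matched a gene of the table and all 38 were abundant enough to be tested, as were 15568 genes in all. RNA-seq read counts were compared between 3 quiescent and 3 young libraries of MRC-5, a widely used fibroblast line from human fetal lung whose cells divide only a limited number of times. All the cells were at population doubling 32. The quiescent cells had been held in contact inhibition for 9 days, which arrests growth reversibly once cells touch, and the young cells were the labelled control, with no treatment named. Per the labels, the young libraries were first part of another series and were analysed again here. The set a library came from and its growth state therefore cannot be told apart below. The comparison asks which transcripts of the pathway differ in level when these fibroblasts leave the cell cycle.

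Autophagy delivers cytoplasm to the lysosome. A kinase complex around ULK1 and a lipid kinase complex around Beclin 1 start a membrane sheet next to the endoplasmic reticulum, lipid carriers enlarge it, and ubiquitin-like conjugation systems attach ATG8 proteins (LC3 and GABARAP) to its lipids. Receptors such as p62 bind both cargo and ATG8 proteins, and some of them are degraded together with what they carry. The pathway is under the control of nutrient sensing through mTORC1 and AMPK and is known to remain active in cells that do not divide. Transcript levels do not measure the rate at which autophagosomes form or are consumed.

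Total counts ran from 26860981 to 29433764 in the young libraries, called A, B and C here, and from 18661639 to 22546237 in quiescent libraries 1, 2 and 3. Whether the libraries of a group came from separate cultures is not stated in the labels. If they did not, the spread that the p-values rest on is technical. Reads had no molecular identifiers, so an interval from counts covers counting error alone. Levels are given in CPM, read counts scaled to a common library total with TMM factors, and differences as log2 fold changes of quiescent over young from edgeR's quasi-likelihood test, with p-values adjusted by Benjamini-Hochberg over the 15568 genes and called at 0.05. The cells carried transcripts of fibroblasts, with all 10 fibroblast markers abundant enough to test, 3 of them called higher and 6 lower in quiescence. Among these COL1A1 stood at 8779.6 CPM in young and 3879.7 CPM in quiescent cells, LUM at 179 and 419 CPM, and VIM, not called, at 2863.4 and 2884.3 CPM. Of 7 blood cell markers none reached the tested level, and their sum was at most 0.353 CPM in any library. Markers of pericytes and smooth muscle summed to between 612 and 652 CPM in young and between 282 and 293 CPM in quiescent libraries. Of the 6 that could be tested, 5 were called lower, against 36.3% of all tested genes, and DES was not called. CSPG4 fell most, from 272 to 81.6 CPM (-1.74 ± 0.04 in log2), and ACTA2 stood at 149 and 101 CPM. MYH11 was near absent, at 0.112 and 0.0889 CPM. Epithelial markers summed to 41.6 to 45.3 and 26.8 to 27.6 CPM, nearly all from KRT8 and KRT18, and SFTPC, SCGB1A1 and KRT5 had no read. Endothelial markers summed to 75.4 to 86.0 and 91.8 to 93.8 CPM, mostly from TEK. Both endothelial markers that could be tested rose, TEK by 0.18 ± 0.05 and VWF by 2.03 ± 0.20 in log2 (VWF from 0.803 to 3.27 CPM), while PECAM1 stood at 0.0497 and 0.0168 CPM and CDH5 at 0.0131 and 0 CPM. The part of these shifts in the results was not tested, and in bulk RNA fewer cells of a type and less RNA per cell cannot be told apart. All 8 proliferation genes were lower in quiescence, MKI67 (Ki-67) by -3.37 ± 0.15 (SE) and CCNB1 (cyclin B1) by -3.0 ± 0.06 in log2.

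Beside all tested genes, which were not matched to them in level, the autophagy genes as a group moved little. Of the 38, 24 (63.2%) were called, against a background of 71.1% of all tested genes, and they divided into 16 higher and 8 lower in quiescence. The higher calls made up 42.1% of the autophagy genes and 34.8% of all genes, and the lower calls 21.1% and 36.3%. GABARAPL1 alone was called and at least 1.5-fold different, which is 2.63% of the 38, while 33.2% of all tested genes were (17.3% higher and 15.8% lower). The median size of the log2 fold change, whatever its sign, was 0.18 for the autophagy genes and 0.39 for all genes, and the signed medians were 0.06 and 0.00. The range ran from -0.51 for ATG101 to 1.16 for GABARAPL1. These 2 values lay at the 18.9th and 93.0th percentiles of all tested genes. Quiescent and young CPM values did not overlap for 26 of the 38 (68.4%), against 73.5% of all tested genes. Of the 26, 18 had quiescent above and 8 below, and the split by direction over all genes was not counted. The median coefficient of variation between libraries of a group was, for these genes, 4.25% in young and 3.35% in quiescent cells, against 6.10% and 4.84% for all genes.

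**Figure D1:**
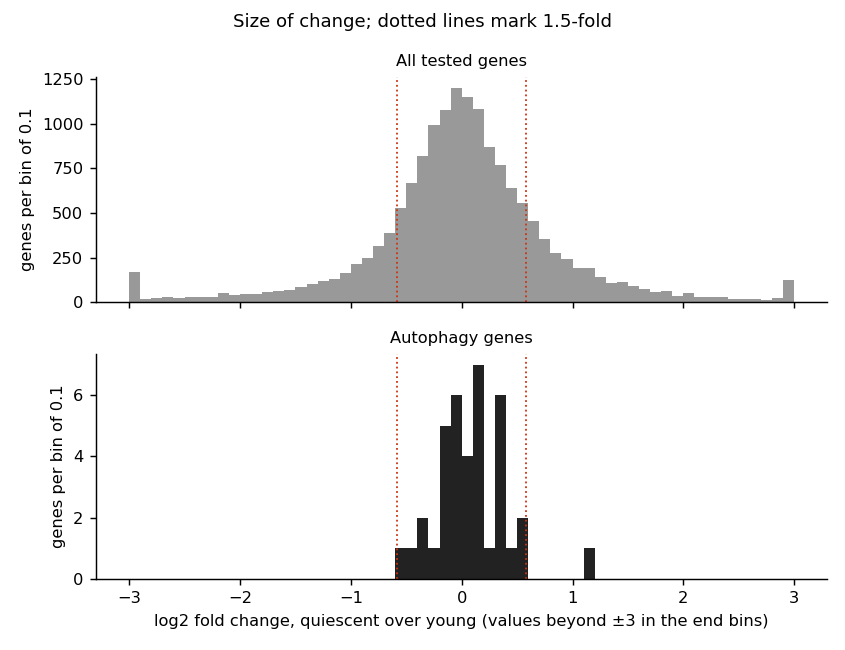
Distribution of log2 fold changes (x axis, quiescent over young, edgeR) for all 15568 tested genes (upper) and for the 38 autophagy genes (lower), as genes per bin of 0.1 on the y axes. Dotted lines mark 1.5-fold, and GABARAPL1 at 1.16 is the only autophagy gene beyond them.

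The direction of small changes depended on how libraries were scaled. Scaling by library size alone moved the autophagy median from 0.06 to 0.24 in log2, and that over all genes from 0.00 to 0.18. Under that scaling 30 of the 38 were called (78.9%, background 73.6%), 27 of them higher (71.1%, background 48.6%) and 3 lower (7.89%, background 25%). At least 1.5-fold and called were then GABARAPL1, SQSTM1, MAP1LC3B and RB1CC1, 4 genes or 10.5%, against 35.9% of all genes (24.3% higher and 11.6% lower). ATG101, ATG7 and MAP1LC3A were called lower under both scalings, and each of the 16 genes called higher was called higher under both. ATG3, NBR1 and OPTN, called lower with TMM, stood at 0.04, 0.00 and 0.01 with library size alone, not called. Of the genes not called with TMM, 7 changed sign with library size alone: BECN1, AMBRA1, ATG9A, WIPI2, TECPR1, ATG4A and ATG4B.

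**Figure D2:**
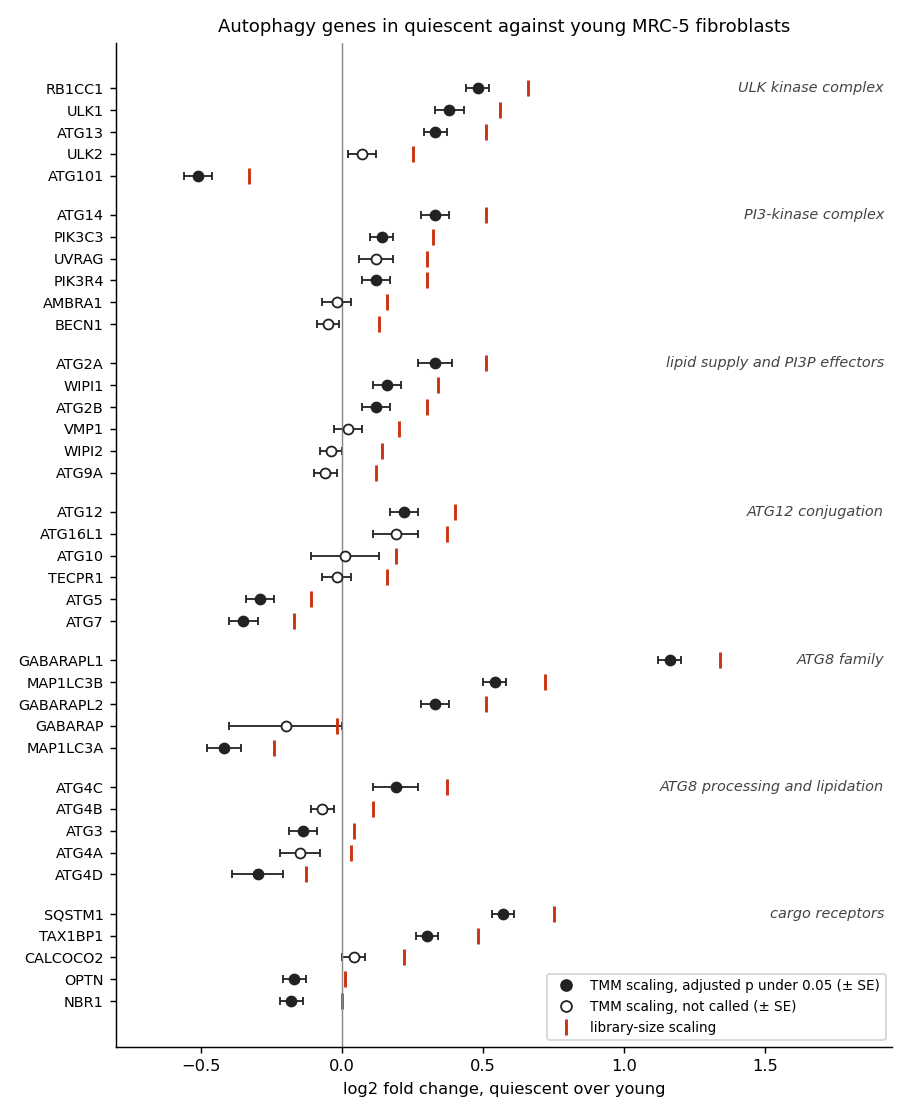
Log2 fold change (x axis, quiescent over young) of each of the 38 autophagy genes, in 7 functional groups. Circles with ± SE bars are from TMM scaling, filled where adjusted p was under 0.05, and red ticks show library-size scaling, which places each gene about 0.18 further right.

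The promoters of the genes whose levels differed most are printed to show the sequence before their RefSeq starts. The gene coordinates given below come from another annotation, GENCODE, whose starts can differ. Which annotated start the reads of a gene came from was not tested. RefSeq promoters (GRCh38.p14) were found for 34 of the 38 genes, with 42 start sites, and RB1CC1, UVRAG, MAP1LC3A and ATG4D had none in the table used. The 250 bases before each start follow for the 4 genes with the largest called changes, 5′ to 3′ on the gene's strand, in lower case. Capitals mark any of the motifs named below. GABARAPL1 (chr12:10212627-10212876, + strand), MAP1LC3B (chr16:87392086-87392335, +) and ATG101 (chr12:52069728-52069977, +) had a single start each among the RefSeq promoters used. Of the 3 RefSeq starts of SQSTM1 the most upstream is shown (chr5:179806143-179806392, +). By the GENCODE coordinates the SQSTM1 stretch lies before the gene. Those of GABARAPL1, MAP1LC3B and ATG101 lie inside their genes.
GABARAPL1: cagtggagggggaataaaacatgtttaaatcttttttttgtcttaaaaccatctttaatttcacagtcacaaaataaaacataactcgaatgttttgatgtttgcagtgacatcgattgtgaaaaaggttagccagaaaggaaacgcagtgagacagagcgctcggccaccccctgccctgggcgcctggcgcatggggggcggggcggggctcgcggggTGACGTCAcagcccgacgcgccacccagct
SQSTM1: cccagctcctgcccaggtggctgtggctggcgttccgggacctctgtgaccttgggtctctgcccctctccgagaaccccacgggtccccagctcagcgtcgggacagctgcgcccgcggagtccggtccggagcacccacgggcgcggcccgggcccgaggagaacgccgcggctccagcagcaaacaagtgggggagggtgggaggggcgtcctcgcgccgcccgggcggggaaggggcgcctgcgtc
MAP1LC3B: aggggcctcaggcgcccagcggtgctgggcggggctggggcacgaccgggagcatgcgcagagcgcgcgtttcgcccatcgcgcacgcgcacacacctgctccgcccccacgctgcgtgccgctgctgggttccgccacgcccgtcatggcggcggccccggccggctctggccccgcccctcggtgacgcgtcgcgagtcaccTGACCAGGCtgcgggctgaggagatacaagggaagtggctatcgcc
ATG101: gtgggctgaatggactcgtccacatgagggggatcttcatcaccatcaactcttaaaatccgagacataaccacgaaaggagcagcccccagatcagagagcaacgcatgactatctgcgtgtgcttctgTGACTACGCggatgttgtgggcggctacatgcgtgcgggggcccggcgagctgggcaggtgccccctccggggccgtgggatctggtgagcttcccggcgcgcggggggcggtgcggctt
Each motif was searched on both strands. Autophagy genes are counted below by gene and the background by promoter, so a gene with several starts had several chances of a match. For each motif, as many of the 42 start sites as of the 34 genes had a match. The letters CACGTG, an E-box that TFEB and MYC family factors can bind, stood in 2 of the 34 genes, ATG14 and ATG3, and in 6.34% of 35116 RefSeq promoters of the same length. TGTTTAC, a forkhead (FOXO) motif, was found in CALCOCO2 alone, and in 2.98% of all. TGACTCA, an AP-1 motif, was in none of the 34, and in 4.20% of all. TGACGTCA, a cAMP response element, was in GABARAPL1 alone, and in 1.65% of all. TGACNNNGC, a core of the antioxidant response element that can overlap TGACTCA, was in ATG101, CALCOCO2, MAP1LC3B and TECPR1, and in 10.9% of all. A match describes letters only. The E-boxes of ATG14 (chr14:55411831-55411868, - strand) and ATG3 (chr3:112561963-112561997, - strand) are shown because they are the matches to the E-box motif. ATG14 was called higher and ATG3 lower. By the GENCODE coordinates the ATG14 stretch crosses the start of the gene (55411858). The ATG3 stretch lies inside the gene, which starts at 112562046.
ATG14: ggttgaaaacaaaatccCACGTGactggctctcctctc
ATG3: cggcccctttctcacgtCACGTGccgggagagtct

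In the ULK complex, which starts autophagosome formation, 3 of 5 genes rose and 1 fell. With library size alone 4 were higher and 1 lower. For this and each functional group below, the background is 34.8% of all tested genes higher and 36.3% lower with TMM. With library size alone it is 48.6% higher and 25% lower. No group was tested against these shares. RB1CC1 (GRCh38 chr8:52622456-52745843), which encodes the scaffold FIP200, had 106, 113 and 106 CPM in young libraries A, B and C and 151, 151 and 150 CPM in quiescent libraries 1, 2 and 3. It rose 1.39-fold (log2 0.48 ± 0.04 SE, adjusted p = 1.08e-10), with no overlap between the groups and a spread of 0.498 CPM (SD, n = 3) among quiescent libraries. ULK1 (chr12:131894651-131923167), the kinase itself, measured 67.5, 64.4 and 60.1 CPM in young and 80.6, 82.5 and 87.2 CPM in quiescent cells. All quiescent values of ULK1 lay above all young ones, a 1.30-fold rise (0.38 ± 0.05, adjusted p = 8.08e-08). ATG13, the adaptor between the kinase and FIP200, rose from 82.0 ± 1.34 to 103 ± 3.30 CPM (SD, n = 3), by 0.33 ± 0.04 in log2 (adjusted p = 8.99e-08). ULK2, the second kinase of the family, stood at 34.1, 34.0 and 33.9 CPM in young and 35.9, 35.6 and 35.6 CPM in quiescent cells. The ULK2 groups did not overlap, yet the difference of 0.07 ± 0.05 was not called (adjusted p = 0.211), and with library size alone it was called at 0.25. ATG101 (chr12:52069246-52077494), which binds and stabilises ATG13, went the other way, with 41.9, 45.1 and 42.6 CPM in young and 29.6, 31.2 and 30 CPM in quiescent cells. ATG101 fell to 0.701 of its young level (-0.51 ± 0.05, adjusted p = 2.37e-09), the lowest fold change of the 38 genes, and its groups did not overlap. An antisense gene, AC025259.1, shares 19.19% of the exonic bases of ATG101 and held at most 3 reads in any library. The library kit does not mark strand, so reads from bases shared by overlapping genes cannot be told apart here or below.

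The lipid kinase complex that marks the new membrane with PI3P had 3 of 6 genes called higher and none lower, and all 6 called higher with library size alone. ATG14, the subunit that directs the complex to autophagy, rose from 37.5 ± 0.367 to 46.9 ± 1.88 CPM, by 0.33 ± 0.05 (adjusted p = 1.58e-06). PIK3C3, the catalytic subunit VPS34, rose from 58.8 ± 1.22 to 64.7 ± 1.77 CPM, by 0.14 ± 0.04 (adjusted p = 0.00708), a call lost with DESeq2's Wald test (adjusted p = 0.0629). PIK3R4, its regulatory partner VPS15, was called at 0.12 ± 0.05 (adjusted p = 0.0434), from 36.4 ± 0.840 to 39.6 ± 2.36 CPM. That call was lost without young library C (adjusted p = 0.0645), quiescent library 1 (0.225) or quiescent library 2 (0.105). BECN1, the Beclin 1 core of the complex, had 69.4, 72.2 and 71.4 CPM in young and 71.7, 67.3 and 67.2 CPM in quiescent cells. These BECN1 values overlapped, and the fitted difference was -0.05 ± 0.04 (adjusted p = 0.327). UVRAG, which takes the place of ATG14 in the endosomal form of the complex, had 23.9, 21.8 and 23.8 CPM in young and 25.6, 25.7 and 24.4 CPM in quiescent cells. The UVRAG groups did not overlap, but at 0.12 ± 0.06 the gene was not called (adjusted p = 0.0650). It was called without young library A (adjusted p = 0.0450), young library C (0.0326) or quiescent library 3 (0.0462). AMBRA1, an activator that binds Beclin 1, had 34.9, 37.5 and 33.6 CPM in young and 34.7, 34.4 and 35.4 CPM in quiescent cells, which overlapped (-0.02 ± 0.05, adjusted p = 0.732). Without young library B its fitted difference was 0.02.

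Of the genes that supply and shape the membrane, 3 of 6 were called higher and none lower, and all 6 were called higher with library size alone. ATG2A, a lipid transfer protein between the endoplasmic reticulum and the growing membrane, rose from 34.4 ± 3.41 to 43.3 ± 2.26 CPM, by 0.33 ± 0.06 (adjusted p = 7.54e-05). Its paralog ATG2B was called at 0.12 ± 0.05 (adjusted p = 0.0401), from 78.0 ± 5.14 to 84.5 ± 4.21 CPM, although its groups overlapped. Without young library C (adjusted p = 0.113) or quiescent library 1 (0.232) ATG2B was not called. WIPI1, which binds PI3P, rose from 76.8 ± 4.48 to 85.7 ± 2.41 CPM, by 0.16 ± 0.05 (adjusted p = 0.00337), and ARSG on the other strand, at 8.83 and 12.5 CPM, shares 24.34% of its exonic bases. WIPI2, the PI3P reader that recruits ATG16L1, had 87.8, 85.5 and 88.7 CPM in young and 82.0, 87.3 and 84.9 CPM in quiescent cells. Those groups overlapped, and the difference of -0.04 ± 0.04 was not called (adjusted p = 0.360). ATG9A, a lipid scramblase carried on vesicles, had 84.3, 86.5 and 89.2 CPM in young and 83.3, 80.0 and 86.2 CPM in quiescent cells, also overlapping (-0.06 ± 0.04, adjusted p = 0.214). A readthrough gene of the same strand, AC068946.2, shares 38.8% of the exonic bases of ATG9A but was not among the genes counted. VMP1, an endoplasmic reticulum scramblase and the most abundant of the group in CPM, had 244, 238 and 265 CPM in young and 273, 241 and 242 CPM in quiescent cells. Its groups overlapped (0.02 ± 0.05, adjusted p = 0.770), and its fitted difference was -0.02 without young library B and -0.04 without quiescent library 1.

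The ATG12 conjugation system, which joins ATG12 to ATG5 and so directs where ATG8 proteins are attached, held calls in both directions, 1 higher and 2 lower among 6 genes, and 3 higher and 1 lower with library size alone. ATG7 (chr3:11272309-11557665), the E1-like enzyme that activates both ATG12 and the ATG8 proteins, had 45.2, 51.3 and 51.4 CPM in young and 38.4, 38.3 and 39.3 CPM in quiescent cells. ATG7 fell to 0.783 of its young level (-0.35 ± 0.05, adjusted p = 1.8e-06), and its groups did not overlap. VGLL4 on the opposite strand, at 29 and 32.1 CPM, shares 18.07% of the exonic bases of ATG7. ATG5, the protein to which ATG12 is joined, fell from 42.4 ± 2.82 to 34.8 ± 0.824 CPM, by -0.29 ± 0.05 in log2 (adjusted p = 4.32e-05). With library size alone ATG5 stood at -0.11 and was not called (adjusted p = 0.0880). ATG12 rose from 56.8 ± 1.5 to 66.3 ± 2.76 CPM, by 0.22 ± 0.05 (adjusted p = 0.000110), and a near copy, AC025198.1, matches 419 bases of it at 96.181% identity. ATG10, the E2-like enzyme for ATG12, was low, with 4.72, 4.66 and 5.06 CPM in young and 5.43, 4.99 and 4.08 CPM in quiescent cells. Its groups overlapped (0.01 ± 0.12, adjusted p = 0.951), the sign turned without young library B (-0.02), quiescent library 1 (-0.07) or quiescent library 2 (-0.01), and 6.86% of its exonic bases are shared with RPS23, at 278 and 258 CPM. ATG16L1, which places the conjugate on the membrane, had 8.93, 9.28 and 8.25 CPM in young and 10.2, 10.2 and 9.73 CPM in quiescent cells. The ATG16L1 groups did not overlap, and its difference of 0.19 ± 0.08 was not called (adjusted p = 0.0508). It was called without young library B (adjusted p = 0.0321) or quiescent library 3 (0.0468), and with DESeq2 size factors (0.0479). TECPR1, which binds the ATG12-ATG5 conjugate, had 55.5, 57.2 and 51.1 CPM in young and 53.9, 53.6 and 53.5 CPM in quiescent cells. The quiescent TECPR1 values lay inside the young range (-0.02 ± 0.05, adjusted p = 0.664), and without young library B the difference was 0.01.

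The ATG8 family showed the widest spread, with 3 of 5 genes higher and 1 lower in quiescence under both scalings. GABARAPL1 (ENSG00000139112, chr12:10212458-10223130), a GABARAP subfamily member, had 168, 187 and 187 CPM in young and 403, 410 and 396 CPM in quiescent cells. Every quiescent value was more than the highest young one, and the rise was 2.23-fold (1.16 ± 0.04, adjusted p = 3.93e-18). MAP1LC3B (ENSG00000140941, chr16:87383995-87404779), the LC3 protein used as the common marker of autophagosomes, had 124, 114 and 126 CPM in young and 169, 179 and 181 CPM in quiescent cells. It rose 1.45-fold with no overlap (0.54 ± 0.04, adjusted p = 4.28e-11). A near copy of its transcript, MAP1LC3B2, matches 601 bases at 97.338% identity and stood at 1.61 ± 0.0505 and 2.66 ± 0.0322 CPM, so reads of both genes cannot be fully parted. GABARAPL2, the GATE-16 protein, had 60.1, 65.8 and 67.7 CPM in young and 77.4, 83.3 and 82.8 CPM in quiescent cells. GABARAPL2 rose 1.26-fold with no overlap (0.33 ± 0.05, adjusted p = 1.15e-06). MAP1LC3A (chr20:34546854-34560345), the other measured LC3 gene of the 38, had 28.2, 25.8 and 27.5 CPM in young and 20.7, 19 and 21.4 CPM in quiescent cells. It fell to 0.750 of its young level with no overlap (-0.42 ± 0.06, adjusted p = 1.76e-06). GABARAP was counted at only 1.69, 1.55 and 2.19 CPM in young and 1.5, 1.76 and 1.46 CPM in quiescent cells. Its groups overlapped (-0.20 ± 0.20, adjusted p = 0.381), and a readthrough gene, AC120057.2, which covers 30.49% of its exonic bases on the same strand, was listed at 0 reads in every library. A further gene, AC120057.3, covers 25.2% of them on the other strand with at most 8 reads. Whether reads of GABARAP were lost to these overlaps was not tested.

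Set on a common scale of CPM per kilobase of exon, the makeup of the ATG8 transcripts differed between the groups. Length here counts all exonic bases of a gene, which can be more than 1 transcript holds. For MAP1LC3B it was 5313 bases, while its longest coding transcript has 2688. Shares and orders between genes depend on this choice of length. GABARAPL1 took 40.7%, 43.9% and 42.3% of the summed level of the 5 genes in young libraries and 58.5%, 58% and 56.7% in quiescent ones. That was 42.3 ± 1.61% against 57.7 ± 0.968% (SD, n = 3), with every quiescent library above every young one. The share of MAP1LC3A was 14.7 ± 0.957% in young and 6.78 ± 0.461% in quiescent cells. MAP1LC3B took 21.9 ± 1.28% and 19.4 ± 0.506%, so its share was lower by 2.44 points although its level rose. The share of GABARAPL2 was 20.3 ± 0.644% and 15.7 ± 0.442%, also lower beside a level that rose. GABARAP took 0.763 ± 0.118% and 0.407 ± 0.0378%. These values take GABARAP as counted, and whether reads of it were lost was not tested. All 5 shares and the summed level carry that limit. A two-sided exact permutation test gave p = 0.1 for each of the 5 shares (0.1 after adjustment over the 5), the smallest p that 3 libraries against 3 allow, so no share can pass 0.05. The 5 shares of a library sum to 100% and are not independent. The summed level was 101, 104 and 108 CPM per kilobase in young and 168, 173 and 171 CPM per kilobase in quiescent libraries, a 1.63-fold difference without overlap (exact permutation p = 0.1, the smallest possible).

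**Figure D3:**
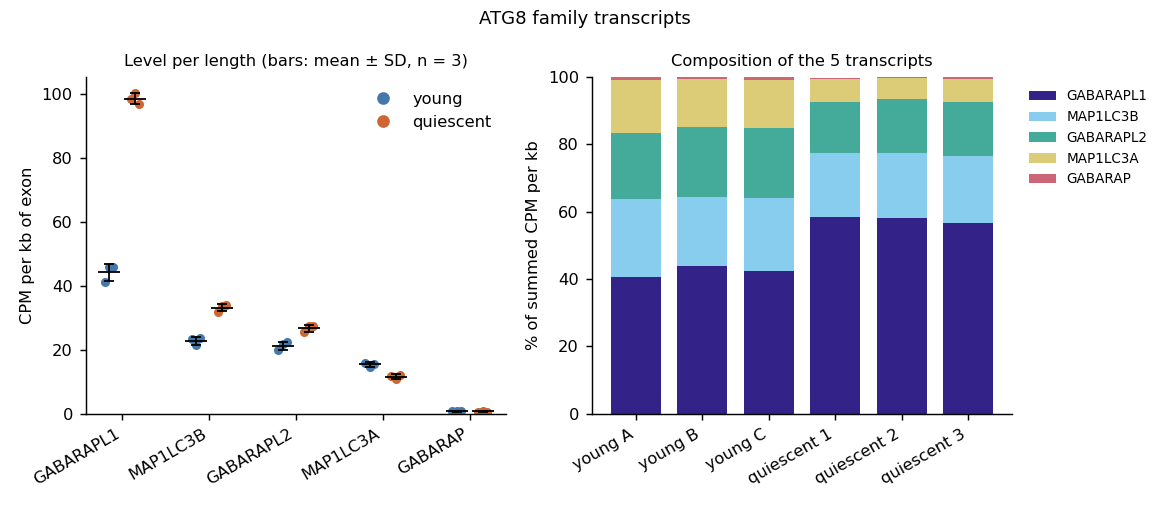
ATG8 family transcripts. Left, level in CPM per kilobase of exon (y axis) of each gene in each library (points), with mean ± SD bars, n = 3 per group; right, share of each gene in the summed level (y axis, %) of each library, in which GABARAPL1 takes 40.7% to 43.9% in young and 56.7% to 58.5% in quiescent libraries.

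The enzymes that cut and lipidate ATG8 proteins included 1 gene called higher and 2 called lower among 5, and 2 higher and 0 lower with library size alone. ATG4B, the main protease that trims ATG8 precursors, had 64.3, 60.8 and 62.4 CPM in young and 61, 58.8 and 58.4 CPM in quiescent cells. The ATG4B groups overlapped and it was not called (-0.07 ± 0.04, adjusted p = 0.138). ATG4A, a protease with a preference for the GABARAP subfamily, had 12.9, 12.8 and 12.2 CPM in young and 11.3, 11.8 and 11.0 CPM in quiescent cells. All quiescent ATG4A values lay below the young ones, but at -0.15 ± 0.07 it was not called (adjusted p = 0.0708). ATG4C was called at 0.19 ± 0.08 (adjusted p = 0.0340), from 11.9 ± 1.08 to 13.6 ± 0.779 CPM. That call was lost without young library A (adjusted p = 0.0567), young library B (0.176), quiescent library 1 (0.0568) or quiescent library 3 (0.125). ATG4D fell from 11.0 ± 1.08 to 8.89 ± 0.558 CPM, by -0.30 ± 0.09 in log2 (adjusted p = 0.00405). With library size alone ATG4D stood at -0.13, not called (adjusted p = 0.227), and KRI1 on the other strand, at 31.1 and 34.2 CPM, shares 14.97% of its exonic bases. ATG3, the E2-like enzyme that transfers ATG8 proteins to lipid, was called at -0.14 ± 0.05 (adjusted p = 0.0159), from 52.8 ± 1.63 to 47.9 ± 3.23 CPM, with overlapping groups. ATG3 was not called without young library C (adjusted p = 0.0626), quiescent library 1 (0.126) or quiescent library 2 (0.0825).

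Cargo receptors moved in both directions, with 2 of 5 called higher and 2 lower, and 3 higher and 0 lower with library size alone. SQSTM1 (ENSG00000161011, chr5:179806398-179838078), which encodes p62, the receptor for ubiquitinated cargo, had 598, 597 and 581 CPM in young and 855, 882 and 898 CPM in quiescent cells. The groups were far apart, and the rise was 1.48-fold (0.57 ± 0.04, adjusted p = 1.04e-12). MRNIP on the other strand shares 20.67% of the exonic bases of SQSTM1 and stood at 18.6 and 23.1 CPM. TAX1BP1, a ubiquitin-binding receptor, had 169, 176 and 169 CPM in young and 207, 215 and 212 CPM in quiescent cells. It rose 1.23-fold without overlap (0.30 ± 0.04, adjusted p = 1.63e-07). NBR1, a receptor related to p62, had 263, 277 and 262 CPM in young and 236, 238 and 235 CPM in quiescent cells. The quiescent NBR1 values lay below all young ones, and the gene fell to 0.885 of its young level (-0.18 ± 0.04, adjusted p = 0.000257). OPTN (optineurin), which binds ubiquitinated mitochondria and bacteria, had 256, 274 and 261 CPM in young and 231, 238 and 233 CPM in quiescent cells. OPTN fell to 0.887 of its young level without overlap (-0.17 ± 0.04, adjusted p = 0.000373). Both falls depended on TMM scaling, since NBR1 and OPTN were at 0.00 and 0.01 with library size alone. CALCOCO2, the receptor NDP52, had 104, 105 and 109 CPM in young and 111, 113 and 103 CPM in quiescent cells, which overlapped (0.04 ± 0.04, adjusted p = 0.378).

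Per length, the order of levels was led by the receptors and ATG8 genes in both groups. Lengths again count all exonic bases of a gene, and the order depends on that choice. SQSTM1 stood at 77.4 ± 1.25 CPM per kilobase in young and 115 ± 2.85 in quiescent cells and was first in both. GABARAPL1 lay below OPTN in young cells, at 44.2 ± 2.72 against 51.4 ± 1.8 CPM per kilobase, and above it in quiescent cells, at 98.6 ± 1.67 against 45.6 ± 0.788. VMP1 followed these genes in both groups, at 36.0 ± 2.04 and 36.4 ± 2.60 CPM per kilobase. NBR1 and MAP1LC3B changed places, at 31.8 ± 0.975 and 22.9 ± 1.24 CPM per kilobase in young and 28.1 ± 0.169 and 33.2 ± 1.2 in quiescent cells. In quiescent cells VMP1 and MAP1LC3B lay within about the sum of their SDs. At the lower end, GABARAP as counted (0.799 ± 0.148 and 0.695 ± 0.0718 CPM per kilobase) and ATG10 (0.883 ± 0.0396 and 0.887 ± 0.126) were the lowest in both groups. ATG16L1 came next at 1.46 ± 0.0863 and 1.66 ± 0.0434. Whether reads of GABARAP were lost in counting was not tested. GABARAP and ATG10 did not differ beyond their spread in young cells.

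Ratios between related genes within each library do not depend on library scaling. They were taken from CPM, not divided by length, so a ratio does not give relative levels per length. The quiescent minus young difference in log2 does not depend on length. Across 10 ratios, the quiescent minus young difference was below 0 for MAP1LC3A over MAP1LC3B and ATG4A over ATG4B. MAP1LC3A over MAP1LC3B stood at 0.223 in young and 0.115 in quiescent cells, a log2 difference of -0.95 with SDs of 0.03 and 0.11 (n = 3). SQSTM1 over NBR1, p62 against its relative, stood at 2.22 and 3.71, a difference of 0.74 with SDs of 0.04 in both groups. GABARAPL1 over GABARAPL2 stood at 2.80 and 4.97, a difference of 0.83. ATG4C over ATG4D differed by 0.51, ULK1 over ULK2 by 0.31, WIPI1 over WIPI2 by 0.20 and ATG14 over UVRAG by 0.20. GABARAPL1 over GABARAP differed by 1.35, on the low counts of GABARAP. In all 8 the groups did not overlap, and each had an exact permutation p of 0.1 (two-sided, the smallest possible, 0.125 after adjustment over the 10 ratios). Taken singly, 73.5% of all tested genes did not overlap between the groups, and ratios of unrelated genes were not examined. ATG2A over ATG2B, by 0.22, and ATG4A over ATG4B, by -0.08, had overlapping groups and p = 0.2 (exact permutation, 0.2 adjusted). With the deposited RPKM values the ATG14 over UVRAG difference was -0.12 and that of SQSTM1 over NBR1 was 0.02, values made with read totals that did not match the libraries.

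**Figure D4:**
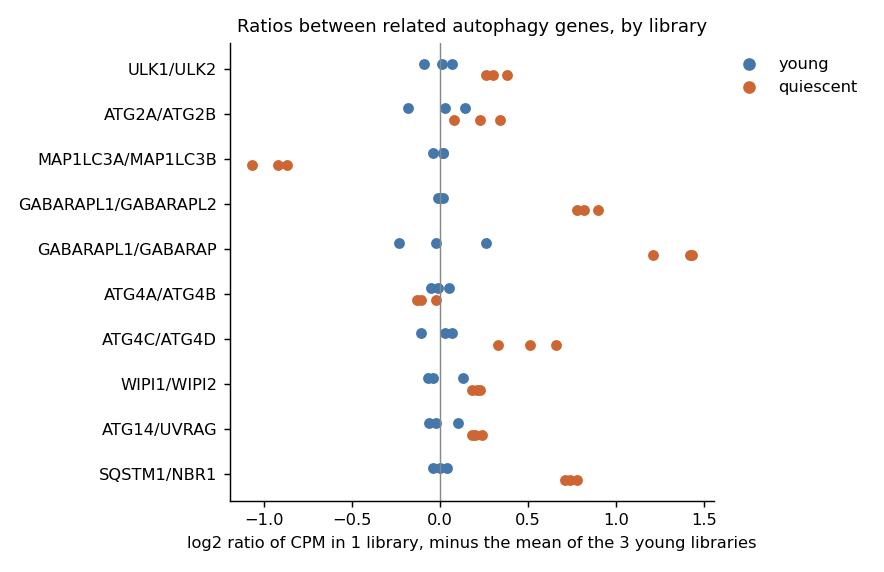
Log2 ratio of the CPM of related autophagy genes (x axis) in each library, shown as the difference from the mean of the 3 young libraries, for 10 gene pairs (y axis). The MAP1LC3A/MAP1LC3B points of quiescent libraries lie lowest, with a mean difference of -0.95, and ATG2A/ATG2B and ATG4A/ATG4B overlap between groups.

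Other genes of the pathway, from lists of related function, included larger changes than most of the 38 showed. Of 15 other core autophagy genes, 12 were tested, 5 were higher and 3 lower, with a median of 0.03. EPG5, a tether of autophagosomes and lysosomes, fell from 232 ± 25.2 to 148 ± 3.46 CPM (-0.65 ± 0.07, adjusted p = 8.82e-06), and ATG16L2, a relative of ATG16L1, rose by 0.43 ± 0.06. Of 20 organelle-selective receptors, 19 were tested, 9 were higher and 4 lower, with a median of 0.12. CCPG1, a receptor for the endoplasmic reticulum, rose 4.4-fold from 10.7 ± 0.818 to 47.1 ± 4.15 CPM (2.14 ± 0.07, adjusted p = 3.01e-18), and 38.74% of its exonic bases are shared with the readthrough gene DNAAF4-CCPG1. BNIP3L, a mitophagy receptor, rose by 0.71 ± 0.04 and TEX264, another receptor for the endoplasmic reticulum, by 0.65 ± 0.05. Of 15 fusion genes, all tested, 6 were higher and 4 lower, with a median of 0.09. VAMP8, a SNARE of the fusion step, fell from 2.83 ± 0.155 to 1.17 ± 0.265 CPM (-1.29 ± 0.19, adjusted p = 1.72e-06), YKT6, also a SNARE, by -0.46 ± 0.04 and VPS16, a HOPS tether subunit, by -0.48 ± 0.05.

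Of 33 genes of mTORC1 and AMPK control, all tested, 18 were higher and 7 lower, with a median of 0.14. DDIT4 (REDD1), an inhibitor of mTORC1, rose 2.98-fold from 17.6 ± 0.491 to 52.5 ± 1.24 CPM (1.58 ± 0.05, adjusted p = 4.30e-19), and DDIT4-AS1 shares 41.16% of its exonic bases. FLCN (folliculin), which acts on RRAGC and RRAGD at the lysosome, rose 1.84-fold (0.88 ± 0.05, adjusted p = 2.05e-12). RRAGD, a Rag GTPase, had 5 reads over the 3 young and 213 over the 3 quiescent libraries, a ratio per library total of 60.2 (95% exact interval 25.4 to 187, counting error only). Of 12 transcription factors linked to autophagy genes, 11 were tested, 5 were higher and 3 lower, with a median of 0.19. FOXO4 and FOXO3, forkhead factors, rose by 0.71 ± 0.08 and 0.54 ± 0.05. E2F1, a cell cycle factor, fell from 15.6 ± 1.07 to 5.02 ± 0.689 CPM (-1.64 ± 0.10, adjusted p = 5.16e-14). The background of 34.8% higher and 36.3% lower calls holds for all of these lists. Their split also moved with scaling: with library size alone the other core genes had 9 higher and 1 lower, and the mTORC1 and AMPK genes 23 and 3.

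**Figure D5:**
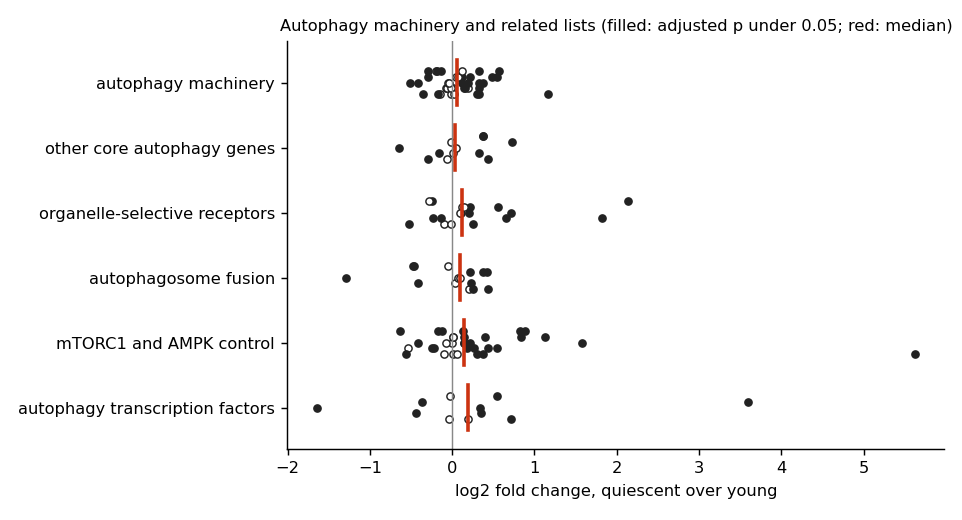
Log2 fold change (x axis, quiescent over young, edgeR) of the tested genes in the autophagy machinery and 5 related lists (y axis); filled points have adjusted p under 0.05 and red bars mark the median, from 0.03 to 0.19. The machinery runs from -0.51 to 1.16, and the point farthest right, RRAGD, rests on 5 young reads.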

How the data were processed

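The authors deposited raw read counts per gene, not normalised, for 60675 genes in 6 libraries, and RPKM values for the same genes. Libraries were made from total RNA with a TruSeq kit (version 2) that does not mark strand, per the labels' protocols. The submitters' processing notes name GRCh38, featureCounts 1.4.6-p4, STAR 2.4.1d and bcl2fastq 1.8.4. Not given in the sources used here are the annotation release, the strand setting and how reads with several matches were treated. Quiescent columns carry sample titles. The 3 young columns name the group but not the sample, so the letters A, B and C pair nothing.

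The counts were fitted in R 4.3.3 with edgeR 4.0.16 (filterByExpr, TMM factors, robust quasi-likelihood fit with group as the only term, glmQLFTest), with Benjamini-Hochberg adjustment over 15568 genes. Standard errors were derived from the same test, as the size of the log2 fold change divided by the square root of its F statistic. TMM factors ran from 0.924 to 0.948 in young and from 1.06 to 1.07 in quiescent libraries, and the fit gave a biological coefficient of variation of 3.84%. Within groups, log2 CPM correlated across genes with r of 0.9949 to 0.9957 and between groups with r of 0.949 to 0.954; genes are not independent replicates. Each pair of libraries within a group differed by more than sampling noise (chi-square per degree of freedom 1.48 to 8.83 over genes with at least 20 summed reads). Symbols, coordinates (1-based) and exonic lengths come from GENCODE 29, which has an entry for 57055 of the 60675 gene IDs counted. Ratios and shares were tested by exact permutation over libraries (scipy 1.17.1).

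Levels per length were planned from the deposited RPKM, but these were found to use read totals that are not those of the libraries (values in the closing section). CPM per kilobase of exon was used in their place. The autophagy genes, the related lists and the markers were chosen with earlier results of these data known. Values in every library are given for the 8 largest called changes, the ATG8 genes, the receptors and the genes not called. From the other lists at most 3 genes each are named, chosen by the size of a called change, at a mean of 1 CPM or more. Alternatives were library size alone, upper-quartile and DESeq2 factors, DESeq2 1.42.0, limma-voom (limma 3.58.1), other filters, limma on log2(RPKM + 1) and log2(RPKM + 0.1), and each library left out. Deposited RPKM for the ATG8 shares, and those shares without GABARAP, were added after the data were seen.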

Additional observations from a re-analysis of the deposited data

How the results depend on the processing

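The 16 higher and 8 lower calls among the 38 genes became 13 to 17 and 7 to 8 with each library left out, and the median log2 fold change of 0.06 became 0.05 to 0.11 (0.11 without quiescent library 3). Limma-voom changed no sign or call of the 38 genes, DESeq2 size factors changed 1 call and DESeq2's Wald test lost 5 (PIK3C3, PIK3R4, ATG2B, ATG4C and ATG3), of which PIK3R4, ATG2B and ATG4C were also lost with no filter on low counts. Library size alone gave 27 higher, 3 lower and a median of 0.24, and upper-quartile factors a median of 0.13. Signs turned with library size alone and upper-quartile factors for BECN1 (0.13, 0.02), AMBRA1 (0.16, 0.05), ATG9A (0.12, 0.01), WIPI2 (0.14, 0.03) and TECPR1 (0.16, 0.05), and with library size alone for ATG4A (0.03), ATG4B (0.11), ATG3 (0.04), NBR1 (0.00) and OPTN (0.01). Signs near 0 also turned with no filter (VMP1 0.00, ATG10 -0.01), with a minimum of 1 CPM in 3 libraries (AMBRA1 0.00) and with DESeq2 (ATG10 0.00). With a library left out, AMBRA1 ranged from -0.05 to 0.02, VMP1 from -0.04 to 0.07, ATG10 from -0.07 to 0.12 and TECPR1 from -0.06 to 0.01. Library size alone changed the other core genes to 9 higher and 1 lower, the receptor list to 1 lower and the mTORC1 and AMPK genes to 3 lower.

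Limma on the deposited RPKM, with either pseudocount, called 5 of the 38 higher and 5 lower. Signs turned with pseudocounts of 1 and 0.1 for BECN1 (0.35, 0.39), PIK3R4 (-0.27, -0.31), AMBRA1 (0.07, 0.08), ATG9A (0.46, 0.51), ATG2B (-0.11, -0.14), ATG10 (-0.07, -0.16), ATG5 (0.01, 0.01), TECPR1 (0.21, 0.26), ATG4C (-0.01, -0.01) and CALCOCO2 (-0.07, -0.08). Ratio differences by RPKM were 0.13 for ULK1/ULK2, -0.62 for MAP1LC3A/MAP1LC3B, 0.75 for GABARAPL1/GABARAPL2, 1.63 for GABARAPL1/GABARAP, -0.02 for ATG4A/ATG4B, 0.18 for ATG4C/ATG4D, 0.38 for WIPI1/WIPI2, -0.12 for ATG14/UVRAG and 0.02 for SQSTM1/NBR1. Share differences by RPKM, in points, were 13.3 for GABARAPL1, -5.81 for MAP1LC3A, -4.02 for GABARAPL2 and -0.538 for GABARAP. Without scaling by length they were 13.4 for GABARAPL1, -3.88 for MAP1LC3A, -4.87 for MAP1LC3B and -0.226 for GABARAP. The cause of these shifts was not tested beyond the read totals behind the RPKM values. No paired analysis was possible because nothing links the running numbers in the names of the young columns to samples or to the quiescent replicates. Low counts limit the values of genes such as GABARAP and RRAGD.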

Other observations

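The deposited RPKM values of these genes were not a rescaling of the deposited counts. Dividing counts by RPKM and by GENCODE 29 exonic length gives the read total behind each value, and this was done for 9515 genes with at least 100 reads and an RPKM of at least 1. In the quiescent libraries the implied total followed a cycle of 14 values down the gene list, within 0.1% for 90.11% of genes in libraries 1 and 2 and 90.12% in library 3. The 3 quiescent totals were among the 14 values, which ran from 18660000 to 33690000 reads, and only 6.25% to 6.60% of genes matched the total of their own library. In the young libraries each gene had the same implied total in all 3 (within 1%), but that total ran from 14990000 to 41540000 reads between the 1st and 99th percentiles of genes. The shift this put into the log2 ratio of quiescent over young was -0.79 for ATG7, -0.74 for SQSTM1, -0.74 for GABARAP, -0.47 for GABARAPL1 and 0.39 for ATG9A.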
